A study of Mus musculus with 12 samples.

Results

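The genes described here are 7 clock output and E-box repressor genes chosen by name: Dbp, Tef, Hlf, Nfil3, Ciart, Bhlhe40, and Bhlhe41. Of these, 6 were among the 12591 genes of the expression table, while Hlf was not among them and was not analysed here. The RNA came from PER2::LUC MEFs, which are mouse embryonic fibroblasts with a fusion of luciferase to the clock protein Period 2, prepared from heterozygous knock-in mice of the strain C57 PER2::LUC. Confluent cells received fresh medium for 24 h with 10 μM deazaneplanocin A (DZ), 1 mM adenine (Adenine), 1 mM S-adenosylmethionine (SAM), or no agent (CTL), and 3.3 mM HCl was present in all 4 groups. SAM is the methyl donor of the cell, DZ is an inhibitor of the enzyme that removes the product of methyl transfer, and adenine is a purine base. There were 3 dishes in each group, 12 libraries in all, each from the polyadenylated RNA of 1 dish.

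In the mammalian clock, the CLOCK and BMAL1 proteins bind DNA elements called E-boxes and drive the transcription of their own repressors as well as of output genes. DBP, TEF, and HLF are activators of the PAR bZIP family that bind a second element, the D-box, where NFIL3 (also known as E4BP4) acts as a repressor. CIART (also known as CHRONO), BHLHE40 (also known as DEC1), and BHLHE41 (also known as DEC2) are repressors that act at E-boxes, and Ciart, Dbp, and the Bhlhe genes are themselves known to be driven by the clock.

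The E-box sequence is shown first, because it is the element by which the clock proteins reach several of these genes. Promoters of 300 bases, from 250 before to 50 after a transcription start, were taken from RefSeq (table build GRCm38.p6) for 6 of the 7 genes, and each was placed in GRCm39 by its single exact match. Bhlhe40 had no promoter entry. The letters CACGTG, which read the same on both strands, were present 3 times in the promoter of Ciart, in 1 place in that of Bhlhe41, and in 1 place in each of the 2 promoters of Tef. Of all 32851 promoters in the table, 7.15% had at least 1 such match, and 29, or 0.0883%, had at least 3. The promoters of Dbp, Hlf, and Nfil3 had no match in this window. No member promoter held the variant CACGTT, found in 4.68% of all promoters on either strand, or the D-box letters TTATGTAA or TTACGTAA, found in 1.06%. A match is a description of letters and not a binding site shown in these cells. The 6 matches are given below in 26 bases on the strand of the gene, 5′ to 3′, with the E-box in capitals.
Ciart, chr3:95789641-95789666, minus strand, 116 bases before the start: catctagagtCACGTGttgccggtaa
Ciart, chr3:95789583-95789608, minus strand, 58 bases before the start: cagggggaggCACGTGcagaaccgca
Ciart, chr3:95789569-95789594, minus strand, 44 bases before the start: tgcagaaccgCACGTGtctgggaggg
Bhlhe41, chr6:145811284-145811309, minus strand, 153 bases before the start: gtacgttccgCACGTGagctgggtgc
Tef, chr15:81686737-81686762, plus strand, 127 bases before the start: gctgtggctcCACGTGctgcagctgg
Tef, chr15:81695467-81695492, plus strand, 138 bases before the start: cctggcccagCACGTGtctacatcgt

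The pair of E-boxes nearest the start of Ciart lay 14 bases apart, measured from the start of each, in a stretch of 81 bases where GENCODE vM39 places no Ciart exon. It is printed whole because no other member promoter held 2 matches.
Ciart, chr3:95789564-95789644, minus strand: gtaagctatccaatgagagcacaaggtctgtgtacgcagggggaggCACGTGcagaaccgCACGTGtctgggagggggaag
The farthest Ciart match lay in an exon of the alternative transcript Ciart-207. The Bhlhe41 match spanned the start of its canonical transcript in exon 1, and the first Tef match lay in an exon of the alternative transcript Tef-202.

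The libraries held between 45649534 and 56789090 reads on the listed genes, so that the member with the fewest reads, Ciart, still had between 106 and 1069 reads per library. The values are log2 CPM (reads scaled to a common library size) on the scale of the authors, and differences between groups were tested with limma across all 12591 genes, with Benjamini-Hochberg adjustment and a threshold of 0.01. The samples are replicate dishes of the same MEFs, so the p-values measure the spread between dishes. SAM replicate 3 stood apart from the other SAM libraries: the chi-square of its reads against theirs, divided by the degrees of freedom, was 19.1 and 15.7, compared with 4.76 to 7.07 for all other pairs of replicates. The fibroblast label was checked with 10 markers, of which 8 were listed and Dcn and Lum were not. Their summed level was 21800 to 22300 CPM in CTL, 27700 to 28300 in DZ, 24200 to 26500 in Adenine, and 15900 to 17200 in SAM. No marker of epithelial, endothelial, or skeletal muscle cells was listed. Of 4 leukocyte markers, Ptprc, Adgre1, and Itgam were not listed, while Cd68 was at 3.03 to 4.0 CPM in CTL, 2.73 to 3.78 in DZ, 10.8 to 12.3 in Adenine, and 15.6 to 17.7 in SAM. The part of these marker shifts in the results was not tested. A lower value in bulk RNA can come from fewer cells that express a gene or from less RNA per cell, and these cannot be told apart. All dishes were harvested at a single time, so a change in level and a change in the phase of a rhythm cannot be told apart either.

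Treatment with DZ moved 3 of the 6 genes past the threshold, 1 higher and 2 lower, when 45.9% of all genes passed it. Nfil3 rose, Dbp and Tef fell, and the E-box repressors Ciart, Bhlhe40, and Bhlhe41 did not pass. Adenine lowered 4 of the 6 genes, namely Dbp, Tef, Ciart, and Bhlhe40, and raised none, when 61.6% of all genes passed. SAM moved 5 of the 6, with Dbp, Tef, Nfil3, and Ciart lower and Bhlhe41 higher, when 69.3% of all genes passed. With so few genes beside such backgrounds, these counts describe the members and set them apart from no other genes. The median log2 fold change of the 6 genes against CTL was 0.0067 under DZ, -0.35 under Adenine, and -0.49 under SAM, while that of all genes was -0.0057, -0.003, and -0.015. The median of all genes depends on the scaling, and was 0.107 under SAM with plain read totals. Medians of the 6 genes were not tested, and under DZ and SAM they cover genes called in both directions. The 3 comparisons share the same CTL dishes. Dishes without overlap between a treatment and CTL were common, at 65.4% of all genes for DZ, 74.7% for Adenine, and 77.6% for SAM. Between treatments the shares were 61.3% for SAM and Adenine, 77.6% for Adenine and DZ, and 77.6% for SAM and DZ. A lack of overlap in a member is therefore a description of its values and does not set it apart.

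**Figure D1:**
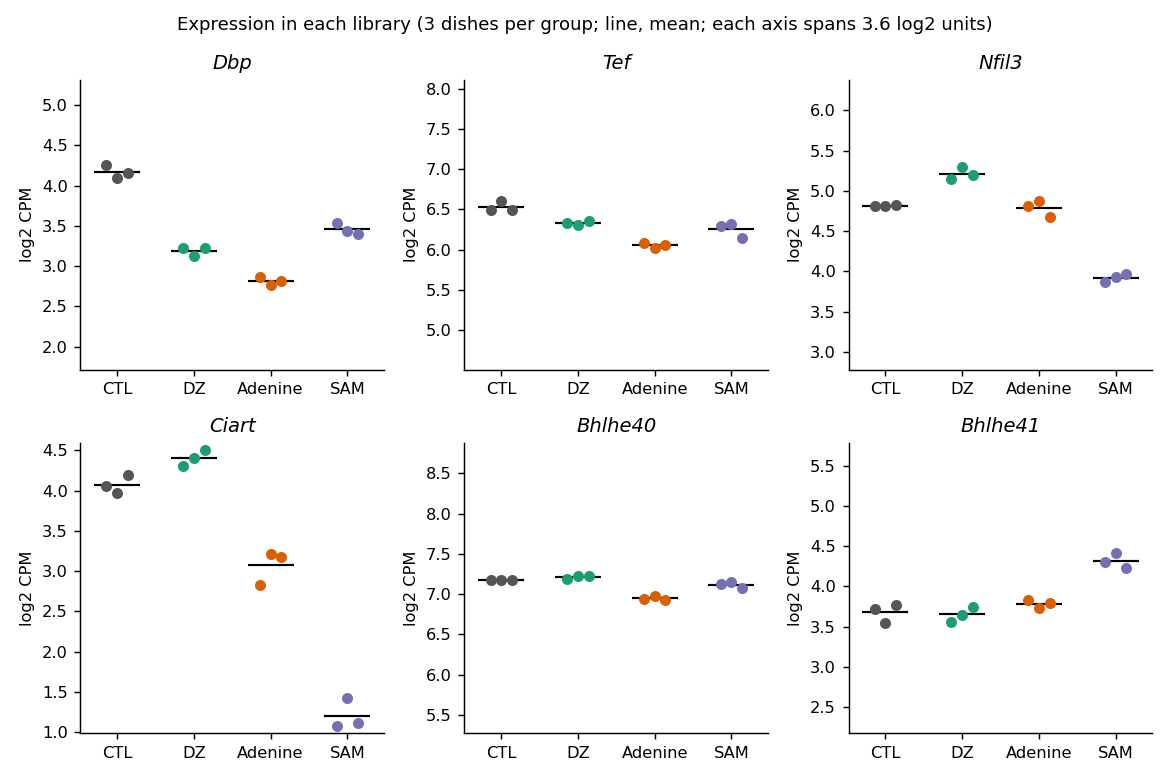
The log2 CPM of each listed gene in each of the 12 dishes, by group, with points for dishes and a bar for the group mean. Ciart falls from a mean of 4.07 in CTL to 1.2 in SAM, and Dbp lies below CTL in every treated dish.

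The PAR bZIP activator Dbp (D-box binding protein, ENSMUSG00000059824.13) lies on the plus strand at chr7:45354512-45359627 in GRCm39 and has 4 exons in its canonical transcript. Its log2 CPM was 4.26, 4.10, and 4.16 in the CTL dishes and 3.22, 3.12, and 3.22 in the DZ dishes. With Adenine the values were 2.87, 2.77, and 2.82, and with SAM they were 3.54, 3.44, and 3.40. The 4 groups did not overlap, with CTL highest, then SAM, DZ, and Adenine. Compared with CTL, Dbp fell by 0.99 on the log2 scale under DZ (SE 0.069, adjusted p = 1.48e-08), to 50.5% of CTL. It fell by 1.35 under Adenine (SE 0.069, adjusted p = 7.92e-11), to 39.1%, and by 0.71 under SAM (SE 0.069, adjusted p = 1.31e-07), to 61.1%. Over alternative settings of the processing, the value for Dbp under SAM ran from -0.83 to -0.59. Among the 6 genes, Dbp and Tef were the ones lowered by all 3 agents.

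Dbp shares 737 bases with Sphk2, a sphingosine kinase gene on the opposite strand. Libraries were made with a kit that marks strand, but how strand was set at counting is not given in the sources used here, so reads of the shared bases may belong to either gene. Sphk2 changed by 0.03 under DZ, by -0.50 under Adenine, and by -0.77 under SAM on the log2 scale, from a CTL mean of 5.48 log2 CPM. In the same order, Dbp changed by -0.99, -1.35, and -0.71. The part of reads from the shared bases in the Dbp values was not tested.

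Tef (thyrotroph embryonic factor, ENSMUSG00000022389.16), the other PAR bZIP activator listed, lies on the plus strand at chr15:81686622-81711064. Its log2 CPM was 6.49, 6.60, and 6.49 in CTL, 6.33, 6.30, and 6.36 in DZ, 6.08, 6.02, and 6.06 in Adenine, and 6.29, 6.32, and 6.14 in SAM. Every treated dish was below every CTL dish, the Adenine dishes were lowest, and the DZ and SAM dishes overlapped. Tef fell by 0.20 under DZ (SE 0.045, adjusted p = 0.00171), by 0.47 under Adenine (adjusted p = 1.71e-07), and by 0.27 under SAM (adjusted p = 4.96e-05). The falls of Tef were smaller than those of Dbp in each treatment, and within each library Tef exceeded Dbp by 2.23 to 2.50 in CTL, 3.11 to 3.18 in DZ, 3.22 to 3.25 in Adenine, and 2.74 to 2.88 in SAM. This within-library log2 difference does not depend on how libraries were scaled, and each treated group lay above CTL without overlap. Without CTL replicate 2, the highest dish, the difference of Tef under DZ was -0.16 and its call was lost (adjusted p = 0.0115). With plain read totals, the difference of Tef under SAM was -0.15 and kept its call (adjusted p = 0.00566).

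Nfil3 (ENSMUSG00000056749.8), the repressor that acts at D-boxes, lies on the minus strand at chr13:53121245-53137010 and has 2 exons. Its log2 CPM was 4.81, 4.81, and 4.83 in CTL, 5.15, 5.29, and 5.20 in DZ, 4.81, 4.87, and 4.68 in Adenine, and 3.87, 3.93, and 3.97 in SAM. The DZ dishes were above all others and the SAM dishes below all others, while Adenine overlapped CTL. Nfil3 rose by 0.40 under DZ (SE 0.056, adjusted p = 2.19e-05), a 1.32-fold higher level, and fell by 0.89 under SAM (SE 0.056, adjusted p = 6.62e-10), to 53.9% of CTL. The difference between Adenine and CTL was -0.03, with a 95% interval from -0.15 to 0.09 (adjusted p = 0.667), and its sign turned to 0.0336 when the libraries were scaled by plain read totals. The lncRNA gene Gm61212 on the same strand shares 703 bases of its span with Nfil3 and was not among the listed genes. Strand cannot tell apart reads of such shared bases.

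The balance of the D-box repressor and the activators was also read within each library. Nfil3 exceeded Dbp by 0.64 ± 0.082 on the log2 scale in CTL (SD, n = 3), 2.03 ± 0.13 in DZ, 1.97 ± 0.12 in Adenine, and 0.46 ± 0.12 in SAM. DZ and Adenine thus lay far above CTL, at 1.93 to 2.17 and 1.87 to 2.10 against 0.55 to 0.71, whereas the SAM range of 0.33 to 0.57 met the CTL range at its lower end. In DZ the wider gap went with a higher Nfil3 and a lower Dbp, while in Adenine it went with a lower Dbp and an Nfil3 that overlapped CTL. In SAM both genes were lower, and their difference changed little. Against Tef, Nfil3 was lower in every library, by -1.79 to -1.66 in CTL, -1.18 to -1.01 in DZ, -1.38 to -1.14 in Adenine, and -2.42 to -2.17 in SAM, so that SAM was the only group below CTL by this measure. These differences are given as values without a test.

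**Figure D2:**
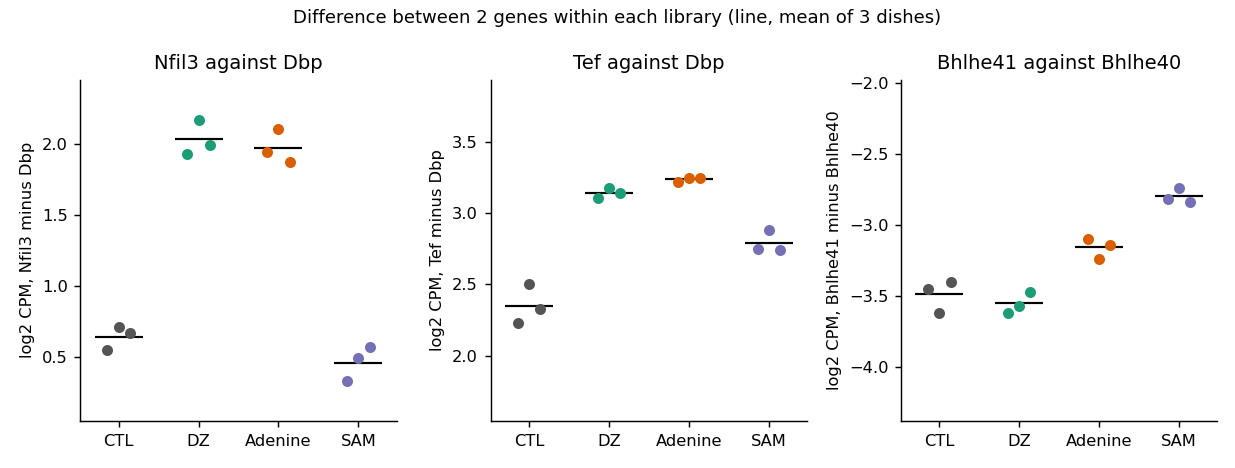
Differences of log2 CPM between pairs of these genes within each of the 12 libraries, by group, with a point for each dish. Nfil3 minus Dbp lies at 1.87 to 2.17 in the DZ and Adenine dishes and at 0.33 to 0.71 in the CTL and SAM dishes.

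Ciart (ENSMUSG00000038550.11), a repressor of CLOCK and BMAL1, lies on the minus strand at chr3:95785815-95789991 and had the widest range of the 6 genes. Its log2 CPM was 4.06, 3.97, and 4.19 in CTL and 4.31, 4.41, and 4.50 in DZ. With Adenine the values were 2.83, 3.21, and 3.18, and with SAM they were 1.08, 1.42, and 1.11. The groups did not overlap, with DZ highest, then CTL, Adenine, and SAM, though 65.4% of all genes did not overlap between DZ and CTL. Under SAM, Ciart fell by 2.87 on the log2 scale (95% interval from -3.11 to -2.63, adjusted p = 2.7e-12), to 13.7% of CTL, a 7.31-fold lower level. Adenine changed it by -1.0 (95% interval from -1.24 to -0.75, adjusted p = 1.2e-06), to 50.2% of CTL. These falls kept their calls under each alternative and without each library, with a range of -2.98 to -2.81 for SAM when single libraries were left out. Over the alternative settings of the processing, the value ran from -2.91 to -2.43 for SAM and from -1.1 to -0.92 for Adenine.

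Under DZ, Ciart was 0.34 above CTL (95% interval from 0.09 to 0.58), with an adjusted p of 0.0196 that missed the threshold of 0.01. The adjusted p was between 0.0017 and 0.0775 over 18 alternatives, and the gene was called in 3 of them: at a threshold of 0.05, with voom on recovered reads, and in a model of the DZ and CTL dishes alone. The lncRNA gene C920021L13Rik on the opposite strand covers all 4177 bases of Ciart and was not among the listed genes.

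The other E-box repressors changed far less. Bhlhe40 (ENSMUSG00000030103.12), a basic helix-loop-helix repressor on the plus strand at chr6:108636626-108644502, had 7.17 log2 CPM in all 3 CTL dishes. It had 7.19, 7.22, and 7.22 in DZ, 6.94, 6.97, and 6.93 in Adenine, and 7.12, 7.15, and 7.07 in SAM. The Adenine dishes were below all others, and the rest lay between 7.07 and 7.22. Bhlhe40 fell by 0.23 under Adenine (SE 0.028, adjusted p = 3.08e-06). The difference was 0.04 under DZ (95% interval from -0.02 to 0.10, adjusted p = 0.259) and -0.05 under SAM (95% interval from -0.11 to 0.01, adjusted p = 0.09), so changes of the size seen with Adenine lay outside these intervals. For SAM the sign turned to 0.0676 with plain read totals, and with median centring the value was -0.09 and passed the test (adjusted p = 0.00646).

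Bhlhe41 (ENSMUSG00000030256.12), the paralog of Bhlhe40, lies on the minus strand of the same chromosome at chr6:145803969-145811430. Its log2 CPM was 3.72, 3.55, and 3.77 in CTL, 3.56, 3.65, and 3.75 in DZ, 3.83, 3.73, and 3.79 in Adenine, and 4.30, 4.41, and 4.23 in SAM. The SAM dishes were above all others, and the CTL, DZ, and Adenine dishes overlapped. Bhlhe41 rose by 0.64 under SAM (SE 0.074, adjusted p = 1.23e-06), a 1.55-fold higher level. It differed from CTL by -0.02 under DZ (95% interval from -0.18 to 0.13, adjusted p = 0.796) and by 0.10 under Adenine (95% interval from -0.05 to 0.26, adjusted p = 0.224), and both signs turned under another scaling, DZ with plain read totals and Adenine with quantile normalization.

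Within libraries, the paralogs drew closer under SAM. Bhlhe41 was below Bhlhe40 by -3.62 to -3.40 on the log2 scale in CTL, -3.62 to -3.47 in DZ, -3.24 to -3.10 in Adenine, and -2.84 to -2.74 in SAM. The Adenine and SAM ranges lay above those of CTL and DZ. Bhlhe40 exceeded Ciart by 2.99 to 3.20 in CTL, 2.72 to 2.88 in DZ, 3.74 to 4.10 in Adenine, and 5.73 to 6.05 in SAM. The 3 repressors therefore moved in separate directions under SAM, Ciart lower, Bhlhe41 higher, and Bhlhe40 near its CTL level.

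**Figure D3:**
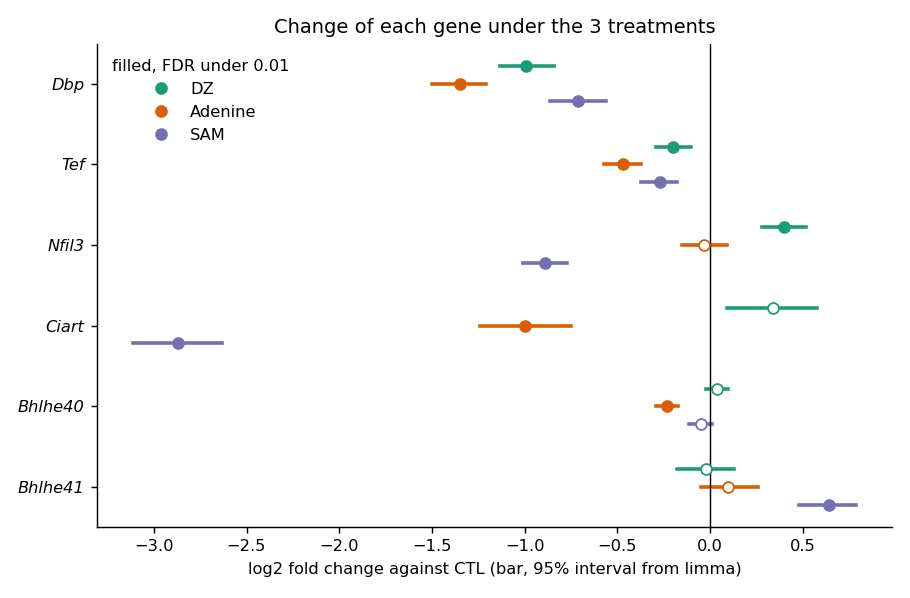
The log2 fold change of each gene against CTL for DZ, Adenine, and SAM, with bars for the 95% interval and filled points for an adjusted p under 0.01. Ciart under SAM, at -2.87, is the largest change, and Bhlhe41 under SAM and Nfil3 under DZ are the filled points to the right of 0.

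SAM and adenine, given at the same concentration, were compared directly, because a gene that passes against CTL with one agent and not with the other is not shown to differ between them. All 6 genes differed between SAM and Adenine, 4 higher and 2 lower in SAM, when 42.7% of all genes passed. Dbp was 0.64 higher in SAM than in Adenine (adjusted p = 1.73e-06), Bhlhe41 0.53 higher (adjusted p = 2.65e-05), Tef 0.20 higher (adjusted p = 0.00187), and Bhlhe40 0.17 higher (adjusted p = 0.000112). Nfil3 was lower in SAM, with a difference of -0.86 (adjusted p = 7.06e-09), as was Ciart, with -1.87 (adjusted p = 3.55e-09). Thus Dbp and Tef were nearer to CTL in SAM than in Adenine, while Nfil3 and Ciart were farther from it. The difference in Tef lost its call without Adenine replicate 2 (0.18, adjusted p = 0.0111) or without SAM replicate 2 (0.16, adjusted p = 0.0118).

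DZ was given at another concentration than adenine and SAM, so the differences between them hold for these doses alone. Between Adenine and DZ, 5 of the 6 genes differed, all lower in Adenine, when 64.3% of all genes passed. The largest was Ciart at -1.33 (adjusted p = 4.26e-08), followed by Nfil3 at -0.43 (adjusted p = 5.12e-06), Dbp at -0.37 (adjusted p = 0.000178), Tef at -0.27 (adjusted p = 5.85e-05), and Bhlhe40 at -0.26 (adjusted p = 5.3e-07). Bhlhe41 differed by 0.13 (95% interval from -0.03 to 0.29, adjusted p = 0.13), and its groups overlapped.

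Between SAM and DZ, 5 of the 6 genes differed, 2 higher and 3 lower in SAM, when 69.0% of all genes passed. Ciart was lower in SAM by -3.21 (adjusted p = 8.93e-13) and Nfil3 by -1.29 (adjusted p = 8.56e-12), whereas Bhlhe41 was 0.66 higher (adjusted p = 8.17e-07). Dbp was 0.28 higher in SAM (adjusted p = 0.0019), and it lost its call without DZ replicate 2 (0.24, adjusted p = 0.0109), without SAM replicate 1 (0.24, adjusted p = 0.0124), and with quantile normalization (0.13, adjusted p = 0.0937). Bhlhe40 was lower by -0.09 (adjusted p = 0.00741), and 9 of its 18 alternatives lost the call, among them plain read totals and those without DZ replicate 2, DZ replicate 3, SAM replicate 1, or SAM replicate 3. Its sign also turned, to 0.0041, with plain read totals. Tef differed by -0.08 (95% interval from -0.17 to 0.02, adjusted p = 0.134).

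Without SAM replicate 3, the SAM library that stood apart, 5 of the 6 genes still passed against CTL. Ciart was then -2.82, Nfil3 -0.91, Dbp -0.68, Tef -0.22, and Bhlhe41 0.68 on the log2 scale, and Bhlhe40, not called, was -0.03. All 6 still passed between SAM and Adenine, and 4 between SAM and DZ, where Bhlhe40 lost its call (-0.07, adjusted p = 0.0235).

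Levels were compared between genes per kilobase of the canonical transcript. In CTL, Bhlhe40 had the highest level at 30.7 ± 0.083 CPM per kb (SD, n = 3), followed by Tef at 21.7 ± 0.953, Nfil3 at 12.3 ± 0.074, Dbp at 9.83 ± 0.554, Ciart at 8.52 ± 0.652, and Bhlhe41 at 2.09 ± 0.164. Dbp, at 9.34 to 10.4, and Ciart, at 7.90 to 9.20, were the neighbours closest to each other, and their dishes did not overlap. The order in the middle depends on the transcript length used, for with the union of all annotated exons the CTL means were 22.7 for Bhlhe40, 11.2 for Tef, 6.46 for Ciart, 5.69 for Nfil3, 5.20 for Dbp, and 1.79 for Bhlhe41. In SAM, Ciart was last at 1.17 CPM per kb of canonical transcript, below Bhlhe41 at 3.24 ± 0.209, and it was last with the union of exons too (0.887 and 2.78). In DZ, Ciart at 10.7 was above Dbp at 4.96 per kb of canonical transcript, whereas with the union of exons Ciart was above Dbp in CTL already.

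**Figure D4:**
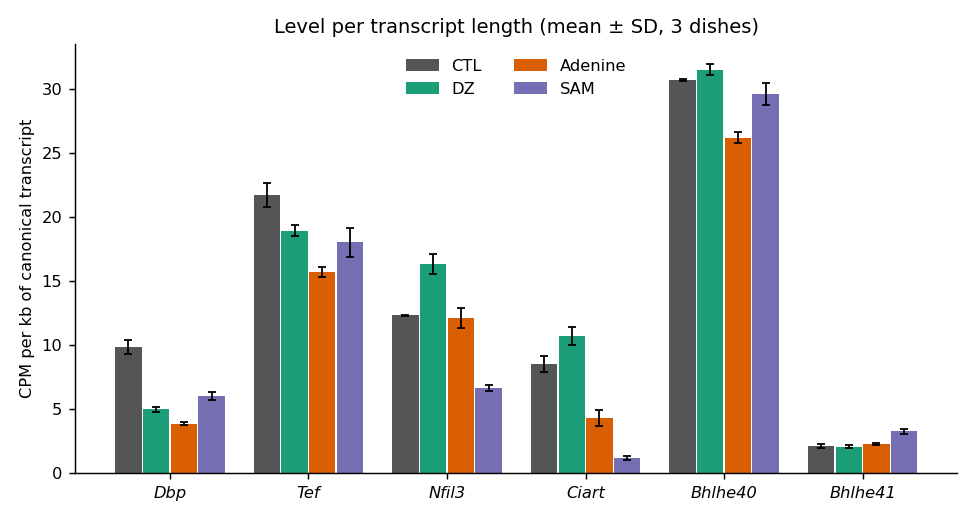
Mean CPM per kb of canonical transcript of each gene in the 4 groups, with bars starting at 0 and error bars for the SD of 3 dishes. Bhlhe40 is highest in every group, and Ciart goes from 8.52 in CTL to 1.17 in SAM.

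The other genes of the clock were counted to place these members among them. Of 13 core clock genes, which form the feedback loops themselves, 12 were listed and Rorb was not. DZ raised 3 and lowered 2 of the 12, beside 45.9% of all genes called. Among them Per3, a period gene, had a log2 fold change of -0.72 (adjusted p = 3.65e-06), Nr1d1, which codes for the repressor REV-ERBα, 0.35 (adjusted p = 7.24e-05), and Bmal1 0.31 (adjusted p = 0.000983). Adenine raised 1, Bmal1 (0.67, adjusted p = 1.88e-07), and lowered 5, including Per2 (-0.76, adjusted p = 0.00086) and the cryptochrome gene Cry1 (-0.65, adjusted p = 2.9e-07), beside 61.6% of all genes. SAM raised 3 and lowered 5, including Cry2 (-0.79, adjusted p = 2.17e-07), Rora (-0.70, adjusted p = 1.77e-06), and Nr1d1 (-0.46, adjusted p = 1.59e-06), beside 69.3% of all genes. The medians of the 12 genes were -0.028, -0.16, and -0.13 under DZ, Adenine, and SAM, beside -0.0057, -0.003, and -0.015 for all genes. With plain read totals, Clock and Nr1d2 lost their calls under SAM (adjusted p = 0.6 and 0.644) and Bmal1 gained one as higher (0.31, adjusted p = 0.000375), so that 4 were higher and 3 lower. With the same scaling Per1 lost its call under DZ and Cry2 under Adenine (adjusted p = 0.0122 for each).

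All of 10 other genes that cycle in many mouse tissues were listed. DZ raised 4 and lowered 3, Adenine raised 4 and lowered 5, and SAM raised 6 and lowered 3, with medians of 0.016, -0.12, and 0.27. The shares of all genes called were 45.9%, 61.6%, and 69.3%. Tspan4, not called under SAM, was called as higher with plain read totals (0.17, adjusted p = 0.000376). Pdk4, a kinase that restrains pyruvate dehydrogenase, rose by 2.81 under Adenine (adjusted p = 1.72e-12) and by 2.47 under SAM (adjusted p = 3.99e-12). The cell cycle kinase gene Wee1 rose by 0.72 and 1.10, and the repressor gene Klf10 by 0.66 and 0.94, under the same agents. Other genes of this list fell, with Nampt at -0.62 under Adenine and -0.50 under SAM. Tsc22d3 and Klf9 were each at -0.65 under SAM. Under DZ the largest changes were those of Nampt, the enzyme of NAD salvage, at 0.39, Alas1, the first enzyme of haem synthesis, at -0.34, and the deubiquitinase gene Usp2 at 0.30. DZ thus moved these genes by 0.39 at most, whereas Pdk4 and Wee1 moved more under Adenine and SAM.

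Families related to the members by structure were read in the same way. The HES and HEY genes code for repressors of the same wider class as BHLHE40 and BHLHE41, and 4 of 7 were listed, with Hes5, Hes7, and Heyl absent from those analysed here. DZ raised 2 and lowered 1, Adenine raised 2 and lowered 2, and SAM raised 2 and lowered 1, with medians of 0.16, 0.34, and 0.35, where 45.9%, 61.6%, and 69.3% of all genes were called. Hey1 rose under all 3 agents, by 1.23, 2.19, and 2.49 (SE 0.29 for each, adjusted p = 0.00218, 6.6e-06, and 1.24e-06). Its CTL mean was low, at 1.44 log2 CPM. Hes1 changed by -0.25, 0.96, and 0.75, and Hey2 by 0.47, -0.53, and -0.96, each past the threshold. The fall of Hes1 under DZ lost its call with plain read totals (-0.22, adjusted p = 0.0122). Hey2 was higher under DZ and lower under the other 2 agents, with low means of 1.86 log2 CPM in CTL and 0.9 in SAM.

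The C/EBP genes code for bZIP factors like DBP, TEF, and NFIL3, and 4 of 6 were listed. DZ raised 3 of the 4 and lowered none, Adenine lowered 3, and SAM lowered 2, with medians of 0.28, -0.41, and -0.78, beside 45.9%, 61.6%, and 69.3% of all genes called. With plain read totals, Cebpg was also called as higher under DZ (0.10, adjusted p = 0.00656) and Cebpd under SAM (0.38, adjusted p = 0.00292). Under DZ, Cebpd rose by 0.73 (adjusted p = 2.16e-05), Cebpb by 0.31 (adjusted p = 0.00402), and Ddit3, which codes for the stress factor CHOP, by 0.26 (adjusted p = 2e-05). Ddit3 fell by 0.85 under Adenine (adjusted p = 9.12e-12) and by 2.88 under SAM (adjusted p = 8.87e-18). Cebpg fell by 0.38 under Adenine and fell by 1.31 under SAM, and Cebpb by 0.45 under Adenine. The falls of Ddit3 lay close in size to those of Ciart in both treatments.

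**Figure D5:**
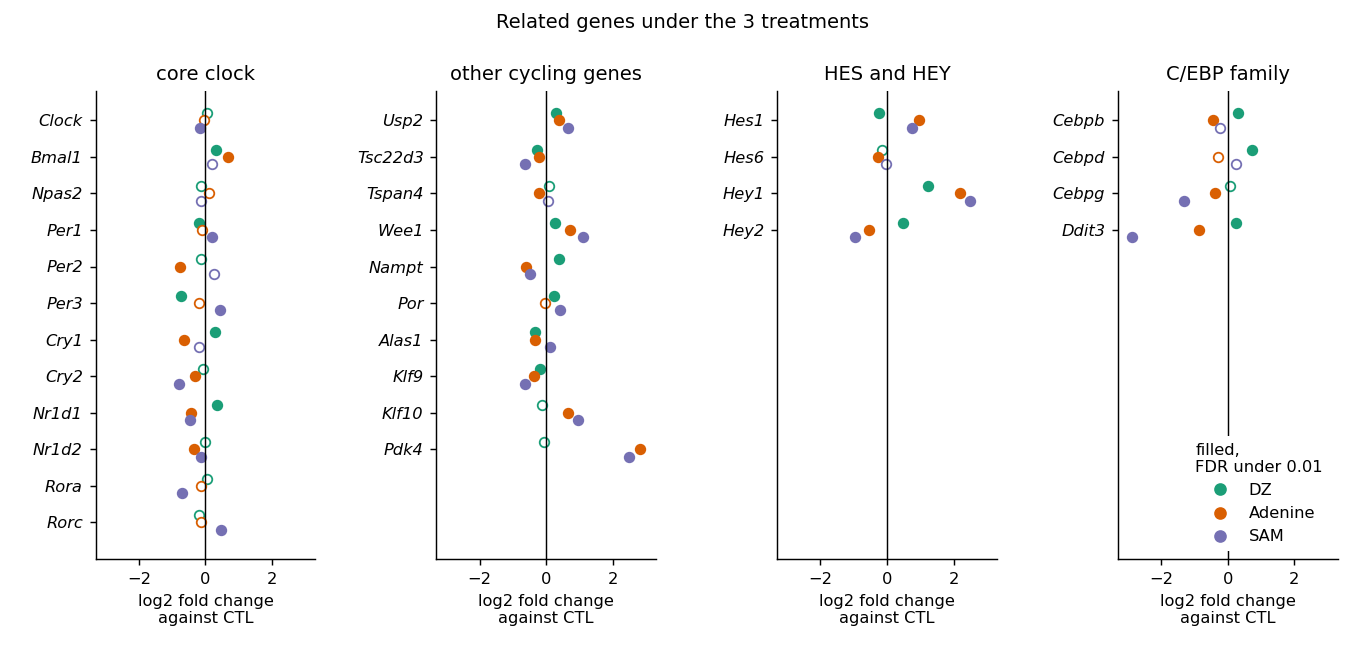
The log2 fold change against CTL of core clock genes, other cycling genes, HES and HEY genes, and C/EBP genes under DZ, Adenine, and SAM, with filled points for an adjusted p under 0.01. Pdk4 and Hey1 lie farthest to the right, at 2.81 and 2.49, and Ddit3 under SAM farthest to the left, at -2.88.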

How the data were processed

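Reads had been trimmed (Trimmomatic), aligned to GRCm39 (HISAT2), and quantified with StringTie on GENCODE vM27 before the authors normalized them with edgeR. The deposited values are normalized log2 CPM of 12591 genes, which the authors kept at 1 CPM or more in all samples. The method of scaling and the strand setting are not given in the sources used here. The deposited values also gave back whole reads (100% within 0.01, with a prior count of 2), which gave the depth. These reads are estimates by StringTie, and lengths and positions are from GENCODE vM39, to which 12575 genes were matched.

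A limma 3.58.1 model (R 4.3.3) with a variance trend was fitted to all 12 libraries, and p-values of 6 comparisons received Benjamini-Hochberg adjustment across the whole table, with a threshold of 0.01. In simulated data with 200 of 12591 genes changed in each treatment, the model recovered 99% (DZ), 99% (Adenine), and 98% (SAM) of them, and 1.49%, 0.503%, and 2% of calls were false. The simulation used a single dispersion of 0.003, fewer changed genes than were called in the data, and shifts larger than many reported here. Every gene and library was drawn with that same dispersion, so no simulated library stood apart as SAM replicate 3 did. These rates therefore do not cover small changes such as that of Tef under DZ, or genes and libraries with a wider spread. Python 3.11.15, numpy 2.4.6, pandas 2.3.3, and matplotlib 3.10.9 were used. All 7 genes are named. Up to 3 called genes with the largest change were named for each list against CTL, and the 3 genes most like each member. For the other cycling genes, the largest falls under Adenine and SAM were named as well. The members and lists were chosen with earlier results of these data known. Alternatives included plain read totals, voom on recovered reads, median centring, quantile normalization, robust empirical Bayes, a fit without the variance trend, a pseudocount of 1 CPM, filters at a mean of 3 and at 1 log2 CPM in every library, an FDR of 0.05, a separate model of each pair of groups, a replicate block, and leaving out each library.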

Additional observations from a re-analysis of the deposited data

How the results depend on the processing

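Over 12 alternative settings, 417 of 432 fold changes of the 6 genes kept their direction and their side of the threshold, as did 204 of 216 with single libraries left out. Among the settings, only median centring, quantile normalization, plain read totals, voom, and the pseudocount could alter a fold change. In the other settings its direction was fixed, and only the call could change. Of 144 counts of called genes, 143 stayed within 1.5 times the reported value. The count of these genes called between SAM and DZ was 3 with quantile normalization, and 3 to 5 with single libraries left out (3 without DZ replicate 2 or without SAM replicate 1). The signs that turned belonged to small differences. With quantile normalization, Bhlhe41 between Adenine and CTL was -0.000577. With plain read totals, Bhlhe41 between DZ and CTL was 0.00042, Nfil3 between Adenine and CTL 0.0336, Bhlhe40 between SAM and CTL 0.0676, and, between SAM and DZ, Tef was 0.0196 and Bhlhe40 0.0041. Without single libraries, Bhlhe41 between DZ and CTL ran from -0.0896 to 0.02 (0.0204 without CTL replicate 3 and 0.0213 without DZ replicate 1) and Nfil3 between Adenine and CTL from -0.0703 to 0.02 (0.0241 without Adenine replicate 3). The cause was not tested. Plain read totals moved the median of all genes between SAM and CTL from -0.0154 to 0.107, and the share of calls that were higher from 48.5% to 61.2%, and between SAM and Adenine from 48.6% to 63.2%. Relative to that median, Bhlhe40 stayed below CTL in SAM. Same-numbered dishes deviated from their group means with r from -0.142 to 0.181 across genes, so no strong pairing by number was seen. Whether same-numbered dishes were handled together cannot be told from these values. With a replicate block, 3, 4, and 5 of the 6 genes passed under DZ, Adenine, and SAM, as without it, and the block changed no call of a member. The fewest reads behind a value were 106, for Ciart in SAM.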

Other observations

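For each gene, the genes with the most similar levels over the 12 libraries were sought, each relative to its own CTL mean and compared by the root-mean-square (RMS) difference on the log2 scale. The libraries share groups and depth, so the measure describes these 12 libraries alone. For Ciart, whose own RMS change was 1.5, the nearest were Ddit3 (RMS difference 0.17), Ppp1r15a (0.21), which codes for a regulatory subunit of the phosphatase that acts on the translation factor eIF2α, and Cth (0.24), which codes for the enzyme that makes cysteine from cystathionine. Ppp1r15a changed by 0.14, -1.25, and -2.90 under DZ, Adenine, and SAM, and Cth by 0.08, -1.02, and -3.15, beside 0.34, -1.0, and -2.87 for Ciart. Only 1 gene of the table, Ddit3, lay within 0.2 of Ciart, compared with 13 for Dbp, 60 for Nfil3, 664 for Bhlhe41, 1348 for Tef, and 3257 for Bhlhe40, whose own changes were smaller.

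For Nfil3 the nearest were Slc3a2 (0.082), which codes for the heavy chain of amino acid transporters, Kyat1 (0.097), and Hax1 (0.10). Slc3a2 changed by 0.38, -0.14, and -0.94 under DZ, Adenine, and SAM, beside 0.40, -0.03, and -0.89 for Nfil3. For Dbp they were the processed pseudogenes Gm12009 (0.13) and Rps12-ps10 (0.16), whose reads could belong to near-identical copies, and the lncRNA gene 1110038B12Rik (0.17), which changed by -0.95, -1.19, and -0.96. For Bhlhe41 they were Pitpnm1 (0.071), Fcsk (0.086), and Ifitm2 (0.09), for Tef Csnk2a2 (0.051), Acsf3 (0.054), and Washc2 (0.064), and for Bhlhe40 Smarcb1 (0.037), Acsl4 (0.040), and Rubcn (0.044).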
